A study of Mus musculus with 4 samples.

Results

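Cytosolic ribosomal protein genes were followed in RNA-seq libraries of mouse hair follicle stem cells. The set holds every gene of the deposited table whose symbol is that of a large subunit protein (Rpl, Rplp) or a small subunit protein (Rps, Rpsa), paralogs ending in l included, without rows named as pseudogenes (-ps) and without the Rps6 kinases. It comprised 89 of the 55401 genes in the table, 53 of the large and 36 of the small subunit. By the GENCODE annotation 83 of them are protein coding, and Rpl32l, Rpl6l, Rps12l1, Rps3a2, Rps3a3 and Rps4l are processed pseudogenes whose symbols do not say so. The cells came from C57BL/6 mice whose follicles were in anagen, when hair grows. Mice ate a normal diet or, for 4 months, a high-fat diet, with 2 libraries per diet. How the cells were isolated, whether animals were pooled and whether replicate libraries are separate mice is not in the labels, so a p-value reflects the spread between libraries alone, and that spread may be technical. Of 9 bulge stem cell markers all 9 were measured in the 4 libraries, Lhx2, Sox9, Cd34 and Krt15 among them.

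The ribosome is built from ribosomal RNA and one copy each of most ribosomal proteins, so cells make these proteins in matched amounts. The large subunit joins amino acids, and its stalk of Rplp0, Rplp1 and Rplp2 recruits the GTPases of translation. The small subunit reads the messenger RNA. Messenger RNAs of ribosomal proteins start with a C followed by a run of pyrimidines, the terminal oligopyrimidine (TOP) tract, through which the growth-sensing kinase complex mTORC1 and the protein Larp1 set their translation. Mammalian genomes carry a great many processed copies of these genes, which arose from reverse-transcribed messenger RNA. In hair follicles, stem cells leaving rest are known to raise protein synthesis as they enter the growth phase.

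The start of transcription shows what these genes share in sequence. In RefSeq promoters (build GRCm38.p6), 64 of the 89 genes had an entry. A run of 7 or more C or T within the 30 bases around the start, 15 on either side, was present in 54.7% of them and in 21.3% of all 27025 genes with an entry. The windows of 6 genes that recur in the results are shown, 3 with a long run and 3 with a short one, on the strand of the gene and with the longest pyrimidine run in capitals. Rpl34 has more than 1 entry, and the start with the longer run is shown.
Rpl34: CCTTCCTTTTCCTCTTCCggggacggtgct
Rps10: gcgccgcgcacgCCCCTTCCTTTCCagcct
Rpl31: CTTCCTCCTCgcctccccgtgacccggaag
Rplp0: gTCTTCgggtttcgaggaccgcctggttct
Rpsa: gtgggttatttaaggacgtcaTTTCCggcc
Rps7: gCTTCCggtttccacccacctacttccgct

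These windows lie at chr3:130730323-130730352 (minus strand) for Rpl34, chr17:27635230-27635259 (minus) for Rps10, chr1:39367836-39367865 (plus) for Rpl31, chr5:115559452-115559481 (plus) for Rplp0, chr9:120127751-120127780 (plus) for Rpsa and chr12:28635939-28635968 (minus) for Rps7. The run was 18 bases long in Rpl34, 13 in Rps10 and 10 in Rpl31, against 5 in Rplp0, Rpsa and Rps7. On either strand of the same 30 bases, CTTTC occurred in 29.7% of the ribosomal protein genes and 8.8% of all genes, and CTTTT in 10.9% and 7.0%. Over the 300 bases of each promoter, CCGGAAG, the core of ETS factor sites, occurred in 40.6% against 9.9%. AAGATGG, the core of YY1 sites, occurred in 15.6% against 7.3%, and GGGCGG, the GC box, in 60.9% against 38.2%. The TATA box TATAAA was found in 12.5% against 15.7%. These are matches of letters, not sites of binding.

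Levels listed in the rows of these genes spanned a wide range although the proteins are needed in matched amounts. Level is given here in FPKM, counts scaled by exonic length and library total, as the mean of the 4 libraries. Exonic length can far exceed the coding sequence, as for Rps15a with 6270 against 393 bases, which lowers FPKM. Reads counted in copies of a gene are not in its row. A low FPKM is therefore not by itself a low amount of messenger RNA. Among the 50 large subunit genes with counts that passed the filter on low counts it ran from 4.26 to 1273 FPKM, with a median of 57.4. Among the 35 small subunit genes that passed it ran from 1.40 to 516 FPKM, with a median of 78.0. Genes below 20 FPKM numbered 15 in the large and 7 in the small subunit. The 5 most abundant genes carried 47.8% of the summed large subunit FPKM and 42.6% of that of the small subunit. The order hardly depended on diet: across the 85 genes the log2 mean FPKM of both diets correlated with r = 0.996, a description over genes that share the same libraries.

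The stalk gene Rplp1 was the most abundant, at 1202 and 1494 FPKM on normal diet and 1273 and 1124 on high-fat diet. Rplp0, which anchors the stalk, followed with 781 and 861 FPKM against 764 and 710, and Rpl8, a protein near the catalytic centre, with 730 and 794 against 652 and 617. Rplp2, the stalk partner of Rplp1, was lower, at 249 and 293 against 266 and 237 FPKM. The second normal diet library was highest for these 4 genes. On the FPKM scale the diets overlapped for Rplp1 and Rplp2 and did not for Rplp0 and Rpl8. In the small subunit Rps15 led with 472 and 589 against 511 and 492 FPKM, ahead of Rpsa, also known as the laminin receptor precursor, with 455 and 508 against 408 and 377. Rps3a1 followed with 440 and 441 against 405 and 387 FPKM. Both high-fat diet libraries lay below both normal diet libraries for Rpsa and Rps3a1, but not for Rps15. Between neighbours in this order, Rps15 and Rpsa differed in the mean by less than the distance between the normal diet libraries of Rps15.

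At the other end, Rps13 was listed at 1.42 and 0.87 FPKM on normal diet and 2.0 and 1.3 on high-fat diet, from 22 to 47 counts per library. Rpl32l, a processed pseudogene, had the lowest value of the large subunit, at 4.03 and 3.21 against 6.31 and 3.5 FPKM, from 12 to 22 counts. Rps27, Rps12, Rpl28, Rpl12 and Rpl10, which encode core proteins of the ribosome, also had means under 10 FPKM. Of these 7 genes, only Rps12 was separated between the diets on this scale, higher on high-fat diet. They are not all the genes under 10 FPKM. Rpl36a, also under 10 FPKM, was separated the other way, at 10.2 and 8.64 against 7.19 and 8.09 FPKM. Of the 4 genes that did not pass the filter, Rps12l1 had 7 and 3 counts on normal diet and 2 and 6 on high-fat diet. Rpl3l, a striated muscle paralog, and Rpl10l and Rpl39l, paralogs of the testis, had 0 counts in every library. A floor of 3 counts per library allows each of them up to between 0.291 and 0.358 CPM (counts relative to the TMM-scaled library size), for counting error only.

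**Figure D1:**
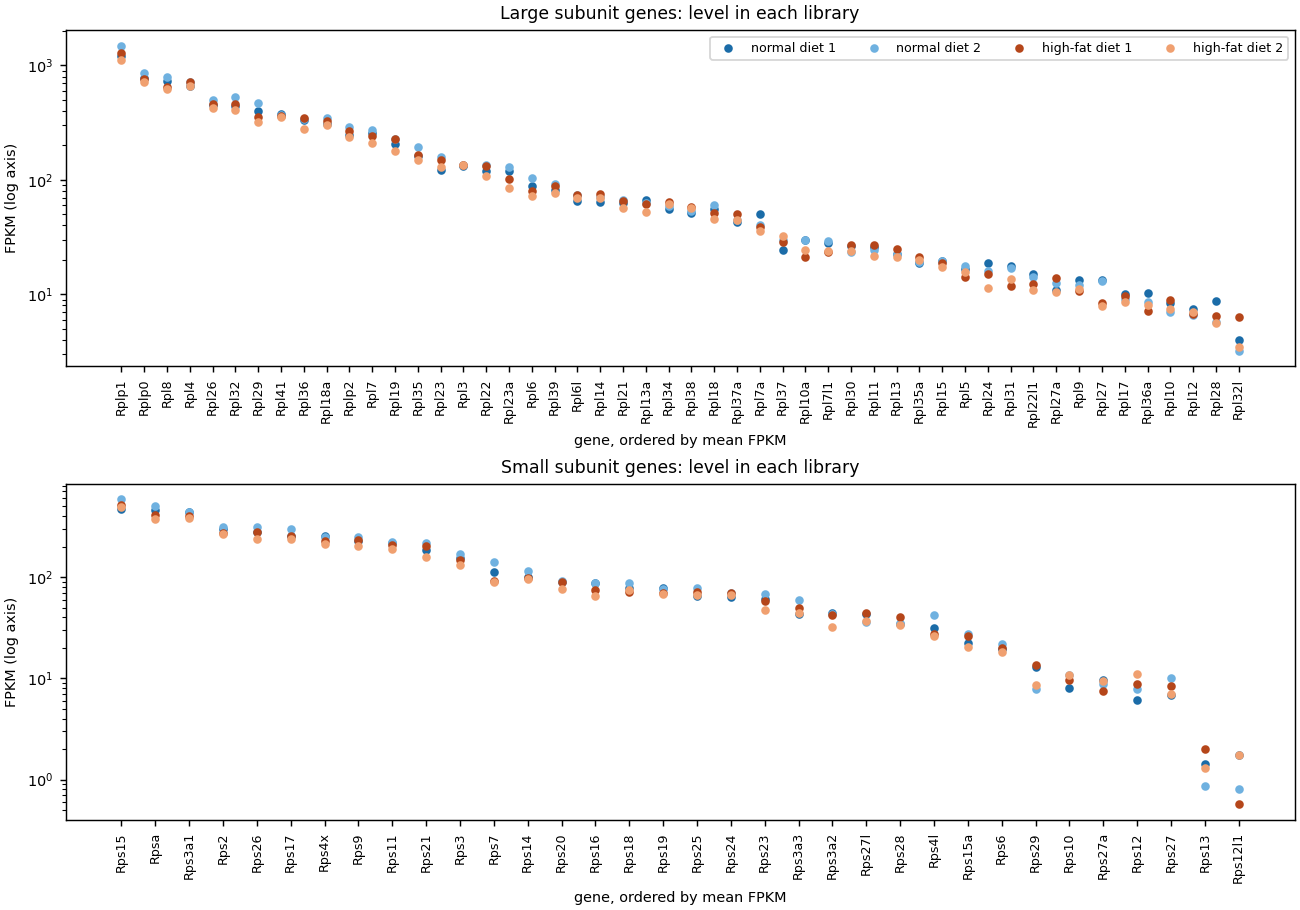
Level of the ribosomal protein genes shown in FPKM (log axis), ordered by mean, with the large subunit above and the small subunit below, and 1 point per library coloured by diet and replicate. Levels span from 4.26 to 1273 FPKM in the large subunit, and the 4 points of most genes lie close together compared with the distance between genes.

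The central comparison asked whether the transcripts of the ribosome differed between the diets. The quasi-likelihood test of edgeR called 0 of the 85 ribosomal protein genes tested (adjusted p under 0.05). Over all 14479 genes it called 1.35%, 1.12% higher (162 genes) and 0.228% lower (33 genes). With libraries scaled to equal sums of TPM these were 88 and 3 genes. DESeq2 called 0 of the 85 and 2.69% of all genes (274 higher, 115 lower). limma on log2(FPKM + 1) called 0 of the 85 and 0.0138% of all genes (2 genes). At an unadjusted p under 0.05, 4 ribosomal protein genes were lower and 0 higher on high-fat diet, where 6.03% of all genes were lower and 7.24% higher, 13.3% together. The smallest adjusted p was 0.235, for Rps7 (edgeR). Single genes were measured with a median standard error of 0.14 on the log2 scale, 0.26 over all genes. The 95% interval of the fold change lay within 1.5-fold in either direction for 36 of 50 large subunit genes and 26 of 35 small subunit genes, and reached 2-fold for 2 and 3 of them. In bulk RNA, fewer cells of a type and less RNA per cell cannot be told apart.

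Differences were small and lay on both sides of 0. The median log2 fold change (high-fat minus normal diet) was -0.01 for the large subunit, with 28 of 50 values negative, and -0.07 for the small subunit, with 26 of 35 negative. Over all genes the median was 0.00, with 49.9% negative. For the 85 genes together the median was -0.04 and ranged from -0.13 to 0.03 when each library was left out in turn. Leaving out the second library on normal diet gave 0.01, and leaving out the second on high-fat diet gave 0.03, so the sign rested on those 2 libraries. The large subunit median was also above 0 with upper quartile scaling (0.01, all genes 0.03). Some other settings moved the median of the 85 genes down, and that of all genes too. It was -0.13 with library totals only (all genes -0.09) and -0.11 with equal sums of TPM (all genes -0.07). With the length trend removed it was -0.12 (all genes -0.07). On the CPM scale, both high-fat diet libraries lay below both normal diet libraries for 22 of the 85 genes and above them for 10. Over all genes tested 44.6% were separated, 21.9% in the first way and 22.7% in the second. The separated genes were 13 lower and 8 higher in the large subunit, and 9 lower and 2 higher in the small subunit.

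**Figure D2:**
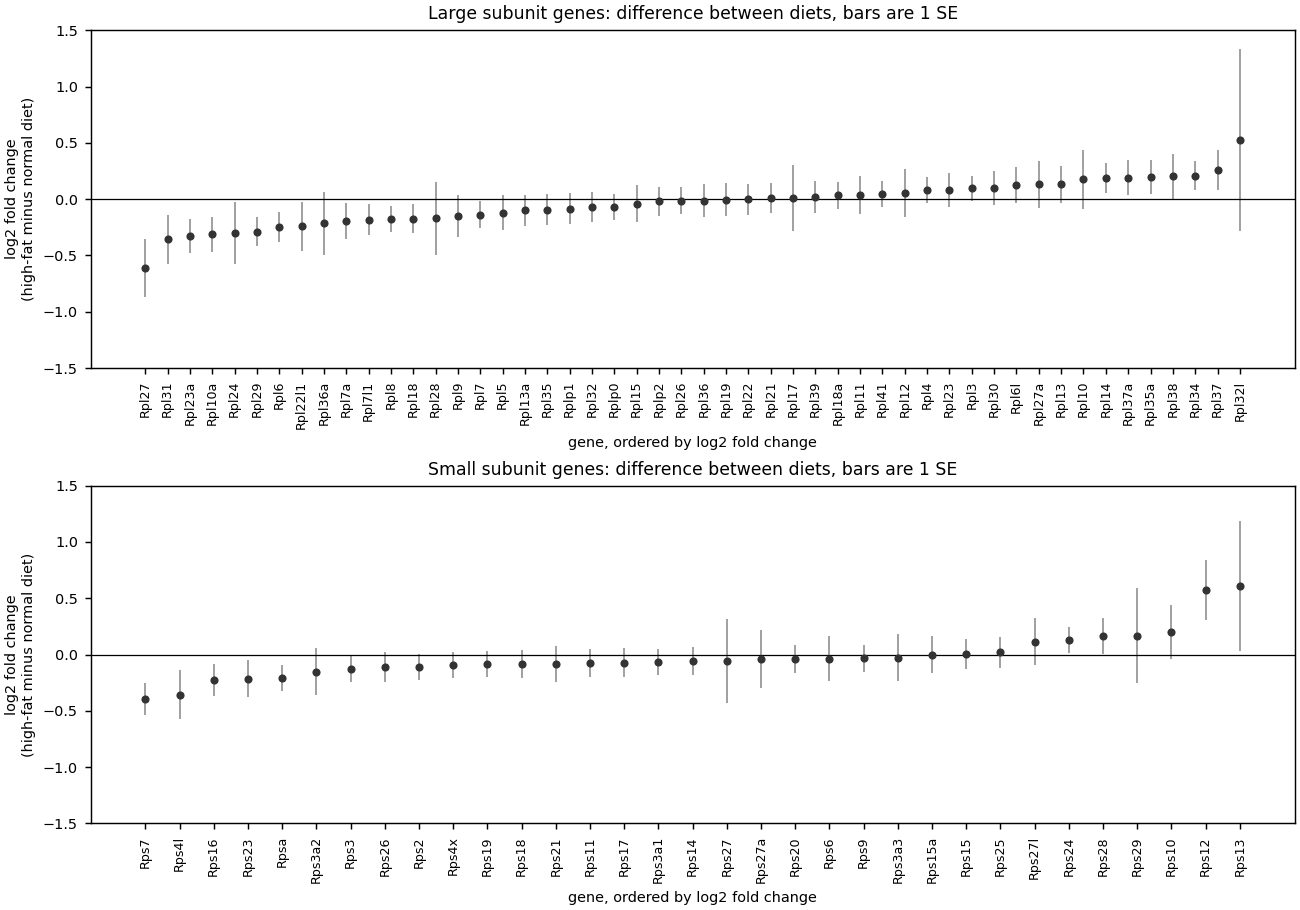
Log2 fold change of the tested genes shown, high-fat minus normal diet, with bars of 1 standard error from edgeR and genes ordered by value, large subunit above and small subunit below. Values run from -0.61 for Rpl27 to 0.61 for Rps13, and the longest bars belong to Rpl32l, Rps13 and Rps29, genes with few counts.

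In the large subunit Rpl27 had the lowest value. Its CPM was 19.8 in both libraries on normal diet and 13.4 and 12.5 on high-fat diet, so that the diets did not overlap. The log2 fold change was -0.61 (standard error 0.26, edgeR, unadjusted p = 0.035, adjusted p = 0.328). Rpl27 lies on chromosome 11 at chr11:101442298-101445529 (GRCm38, plus strand). Rpl31, which sits at the exit of the peptide tunnel, had 28.1 and 27.7 CPM against 20.5 and 23.0, also without overlap. Its log2 fold change was -0.36 (standard error 0.22, edgeR adjusted p = 0.531). Rpl23a, another protein at the tunnel exit, had 97.3 and 106.8 CPM against 88.6 and 73.9. Again both libraries on high-fat diet were lower, by -0.33 on the log2 scale (standard error 0.15, edgeR adjusted p = 0.373). Rpl29, which like Rpl27 and Rpl23a had an unadjusted p under 0.05, had 434 and 521 CPM against 410 and 371, a log2 fold change of -0.29.

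The 3 highest values of the large subunit were those of Rpl34, Rpl37 and Rpl32l. Rpl34 had 140.6 and 153 CPM on normal diet and 174 and 165 on high-fat diet. Both high-fat diet libraries were higher, by 0.21 on the log2 scale (standard error 0.13, edgeR adjusted p = 0.538). Rpl37 had 39.2 and 49.2 CPM against 50.3 and 55.6, a log2 fold change of 0.26 (standard error 0.18). Its diets did not overlap, but the gap between the nearest libraries was smaller than the distance between the normal diet libraries. Rpl32l, with 1.55 and 1.25 against 2.61 and 1.43 CPM, overlapped between the diets, and its interval ran from -1.24 to 2.29.

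In the small subunit Rps7, which also binds Mdm2, the ubiquitin ligase of p53, had the lowest value. Its CPM was 219 and 275 on normal diet and 191 and 184 on high-fat diet. The 2 high-fat diet values lay close together and below both others, while the normal diet values were further apart. The log2 fold change was -0.39 (standard error 0.14, edgeR, unadjusted p = 0.015, adjusted p = 0.235), and -0.22 without the second normal diet library. Rps7 lies at chr12:28630854-28635953 (GRCm38, minus strand). Rps16 had 107 CPM in both libraries on normal diet and 98.8 and 83.8 on high-fat diet, a log2 fold change of -0.23. The processed pseudogene Rps4l had 28.4 and 38.6 CPM against 26.9 and 25.4, a log2 fold change of -0.36. Neither overlapped between the diets, and neither passed the test.

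Rps13, Rps12 and Rps10 had the 3 highest values of the small subunit. Rps12 had 12.01 and 15.6 CPM on normal diet and 18.4 and 22.7 on high-fat diet, without overlap. Its log2 fold change was 0.58 (standard error 0.27, edgeR adjusted p = 0.387). Rps13 had 3.68 and 2.30 against 5.58 and 3.58 CPM, and Rps10 had 17.8 and 24.5 against 23.3 and 25.4 CPM. The diets overlapped for both. Their log2 fold changes were 0.61 (standard error 0.58) and 0.20 (standard error 0.24). All 3 genes have copies elsewhere in the genome that hold more counts, described further on.

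Ribosomal proteins with known roles in stress responses or growth signalling did not pass the test either. Rpl5 and Rpl11, which together with a small ribosomal RNA bind Mdm2 when ribosome assembly fails, had log2 fold changes of -0.12 and 0.04. Rpl5 had 62.9 and 67.4 CPM against 57.6 and 62.4, and Rpl11 had 67.4 and 64.3 against 75.6 and 59.5. The high-fat diet libraries of Rpl11 enclosed those of the normal diet, while those of Rpl5 lay just below. Rps6, the classic substrate of the S6 kinases downstream of mTORC1, had 29.8 and 33.7 CPM against 32.4 and 29.6 and overlapped between diets (log2 fold change -0.04, standard error 0.20). Rps19 and Rps20 are genes whose mutation darkens mouse skin through p53. Rps19 had 353 and 351 CPM against 338 and 324, a log2 fold change of -0.09 (standard error 0.12). Rps20, named here after its values were seen, had 349 and 367 against 378 and 319, with overlap and a log2 fold change of -0.04.

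The remaining genes of prior interest were not called. Rps27a, a fusion of ubiquitin with a ribosomal protein, had a log2 fold change of -0.04 (standard error 0.26). Rps4x, encoded on the X chromosome, had 395 CPM in both libraries on normal diet against 385 and 354, a log2 fold change of -0.10. Rpl13a and Rps18, in wide use as reference genes for quantitative PCR, had -0.10 (standard error 0.14) and -0.09 (standard error 0.13). The 95% interval ran from -0.40 to 0.20 for Rpl13a and from -0.36 to 0.19 for Rps18. Among the most abundant genes, Rplp0 had a log2 fold change of -0.07, Rplp1 of -0.08, Rplp2 of -0.02, Rpl8 of -0.18, Rps15 of 0.00, Rpsa of -0.21 and Rps3a1 of -0.07. Their standard errors lay between 0.11 and 0.14, and the diets were separated in CPM for Rpl8, Rpsa and Rps3a1.

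Summed over all 89 genes, ribosomal protein transcripts took 2.05% (95% exact binomial interval 2.04 to 2.06) and 2.25% (2.24 to 2.26) of all counts on normal diet. They took 2.03% (2.02 to 2.04) and 1.85% (1.84 to 1.86) on high-fat diet. The diets did not overlap, with means of 2.15 ± 0.141% and 1.94 ± 0.126% (SD, n = 2 each), but the distance between the first library of each diet was smaller than that between replicates. Intervals cover counting error only. With 2 libraries against 2 the smallest p that an exact two-sided permutation test can give is 0.333. Ribosomal, mitochondrial and other small RNA took 22.2% and 23.8% of counts on normal diet and 26.8% and 26.6% on high-fat diet. With those rows taken out of the total, the share was 2.64% and 2.96% against 2.77% and 2.52%, and the diets overlapped. They also overlapped in summed TMM-scaled CPM, at 19766 and 22022 against 21031 and 18968.

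The balance of the subunits was measured as the ratio of summed FPKM, which does not depend on how libraries are scaled. Large subunit genes summed to 1.76 and 1.79 times the small subunit genes on normal diet and to 1.83 and 1.81 times on high-fat diet. The diets did not overlap, with means of 1.78 ± 0.0175 and 1.82 ± 0.0198 (SD, n = 2 each). The difference of 0.0441 ranged from 0.0301 to 0.0581 when each library was left out. Its sign cannot change in this way, because the diets do not overlap. The ratio was not tested between the diets, and it was not computed with the counts of copies added.

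**Figure D3:**
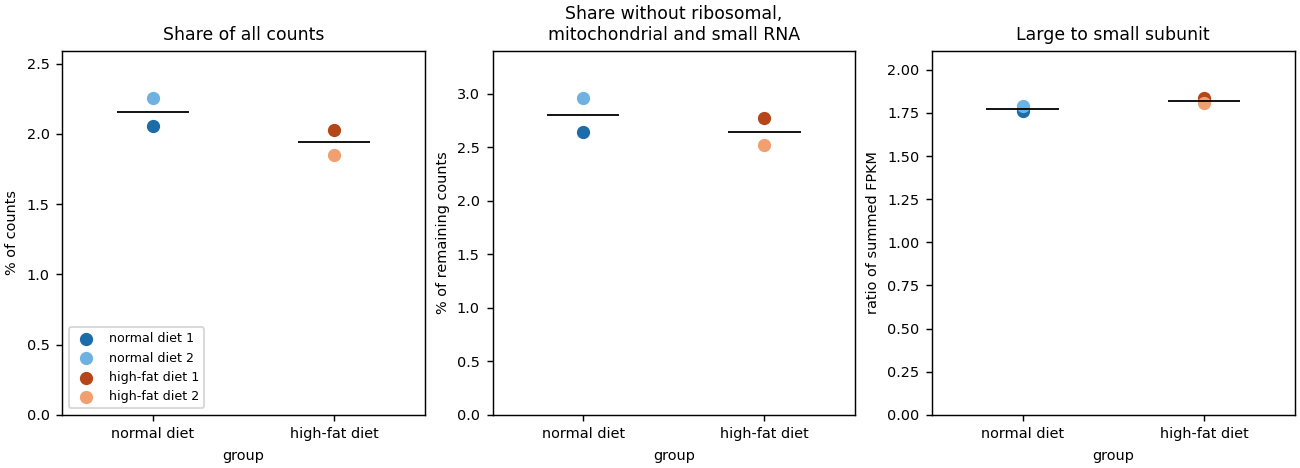
Ribosomal protein genes in each library, by diet, with horizontal lines at the group means: their share of all counts (%), their share of counts without ribosomal, mitochondrial and small RNA (%), and the ratio of summed FPKM of large to small subunit genes. The diets are separated in the left and right panels and overlap in the middle panel, where the normal diet libraries are at 2.64% and 2.96% and the high-fat diet libraries at 2.77% and 2.52%.

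Paralogs differed from their parents to very different degrees. Rps27l, a p53-responsive paralog of Rps27, stood above its parent in every library, with an FPKM ratio of 6.37 and 3.53 on normal diet and 5.28 and 5.24 on high-fat diet. That parent is the row named Rps27 alone. The row Rps27rt, identical to Rps27 over 255 aligned coding bases, was at 328 and 420 FPKM on normal diet and 342 and 292 on high-fat diet, above Rps27l in every library. Rpl22l1, which is known to rise when Rpl22 is lost, stood at 0.126 and 0.105 of Rpl22 against 0.0948 and 0.1. Rpl7l1, a nucleolar relative of Rpl7, stood at 0.108 and 0.109 against 0.0967 and 0.114. Of these 3 ratios that of Rpl22l1 was separated between the diets, at a distance smaller than that between the normal diet libraries. Of the pseudogenes, Rpl6l stood at 0.74 and 0.713 of Rpl6 against 0.928 and 0.959, and Rps4l at 0.124 and 0.169 of Rps4x against 0.121 and 0.124. The ratio of Rpl6l was separated between the diets, with a log2 fold change of 0.13 for Rpl6l and of -0.25 for Rpl6 (267 and 318 against 261 and 232 CPM, edgeR adjusted p = 0.461).

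Many ribosomal protein genes share coding sequence with other genes, so that their reads may fit several places, and this bears on each level given above. Over 83 genes with a coding transcript in GENCODE, every 50-base window of the coding sequence was compared with the transcripts of all other genes. The median gene had 88.6% of its windows also in another gene, and 25 genes had all of them shared. No source used here says how the authors counted reads that fit several places. The 4 tested genes with under 10% shared windows, Rpl8 and Rpl41 among them, had a median of 292 FPKM, and the 9 genes with 10 to 50% had a median of 209. The 27 genes with 50 to 90% had a median of 78.0 FPKM and the 40 genes with 90% or more had a median of 38.7. Across these 80 genes the shared percentage and log2 mean FPKM had a Pearson r of -0.48 and a Spearman rho of -0.55, a description over genes that share libraries. Against the log2 fold change r was -0.02.

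**Figure D4:**
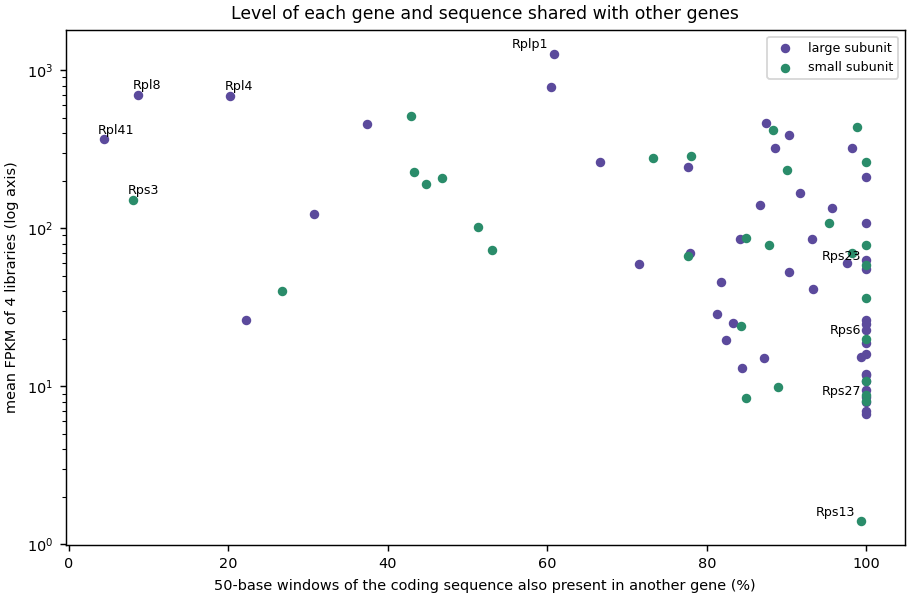
Mean FPKM of 4 libraries (log axis) against the percentage of 50-base coding windows that also occur in another gene, 1 point per gene shown, coloured by subunit. The genes with under 10% of windows shared, among them Rpl8, are at 152 FPKM or above, while genes with nearly all windows shared reach down to 1.40 FPKM, for Rps13.

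Rows of copies held many counts as well. Whether these were reads of the gene or of the copy cannot be told from the counts. The table has 318 pseudogene rows named after one of the 89 genes, and 181 of them had counts. Copies under other names are not among them. Together they held 16.9% and 16.7% of the counts of genes and pseudogene rows on normal diet and 17.0% and 16.7% on high-fat diet, so that the diets overlapped. For 19 genes, 24 copies (pseudogene rows or retrotransposed rows named rt) held more counts over the 4 libraries than the gene itself. Rps23-ps1 had 16537 counts against 2730 for Rps23, Rps6-ps4 had 8234 against 1152 for Rps6, Rps27rt had 4744 against 309 for Rps27, and Rpl36a-ps2 had 5381 against 521 for Rpl36a. None of the 24 copies was called between the diets by edgeR. The lowest adjusted p among them was 0.226, for Rps10-ps2.

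Identical and nearly identical copies are shown by their coding sequence in GENCODE transcripts (GRCm38), since the differences set what a read can tell apart. The first 60 coding bases of Rps6 are identical in Rps6-ps4, as is the whole coding sequence of 750 bases. A 60-base stretch of Rpl14 from coding base 364 to 423 holds 2 of the 4 bases in which Rpl14-ps1 differs over 651 aligned bases. A stretch of Rps13 from base 370 to 429 holds both differences from Rps13-ps1 over 456 aligned bases. Capitals mark the differing bases.
Rps6 and Rps6-ps4: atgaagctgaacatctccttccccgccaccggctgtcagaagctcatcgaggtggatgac
Rpl14: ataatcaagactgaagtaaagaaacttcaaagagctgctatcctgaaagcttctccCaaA
Rpl14-ps1: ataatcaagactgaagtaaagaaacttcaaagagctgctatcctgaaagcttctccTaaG
Rps13: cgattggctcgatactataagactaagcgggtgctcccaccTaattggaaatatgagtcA
Rps13-ps1: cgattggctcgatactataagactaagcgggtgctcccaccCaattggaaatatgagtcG

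Rps6 lies at chr4:86854660-86857412 (minus strand) and Rps6-ps4 at chr2:75191073-75191822 (minus). Rpl14 lies at chr9:120571444-120574654 (plus) and Rpl14-ps1 at chr7:45324965-45325617 (plus). Rps13 lies at chr7:116331505-116334195 (minus) and Rps13-ps1 at chr8:87047689-87048226 (plus). In transcript sequence, a read within the Rps6 stretch matches both rows equally, while a read over the capitals of the other pairs does not. Exon junctions were not considered in this comparison. Rps13-ps2, on chromosome 7, matched Rps13 without a difference over 453 aligned bases and held 1137 counts against 137.

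Adding the counts of pseudogene rows to their gene moved several of the values that stood furthest from 0, while Rpl32l (0.52) and Rps4l (-0.36), which have no reads in such rows, did not move. Rps13 went from a log2 fold change of 0.61 to -0.10, Rps10 from 0.20 to -0.27 and Rps12 from 0.58 to 0.16. On the other side Rpl27 went from -0.61 to -0.49, Rps7 from -0.39 to -0.24, Rpl31 from -0.36 to -0.14 and Rpl23a from -0.33 to -0.06. Rpl34 went from 0.21 to 0.11. In all, 76 of 85 genes had the same sign in both fits, and edgeR called 0 genes after the sum, with a smallest adjusted p of 0.364. Only rows named -ps after the gene were part of that sum, not copies under other names. Rpl24, for example, shared 99.3% of its windows with other genes, 10 in number, and had 0 such rows. The 2 rows named rt, Rpl37rt and Rps27rt, were not part of it either. When these rt rows were added as well, an alternative chosen after seeing the data, Rpl37 went from 0.26 to -0.05 and Rps27 from -0.06 to -0.15. Again 0 ribosomal protein genes were called (edgeR). The highest values of the small subunit, of Rps13, Rps12 and Rps10, and that of Rpl37 are therefore values of the row that carries the gene's name, not of all reads that fit the gene.

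**Figure D5:**
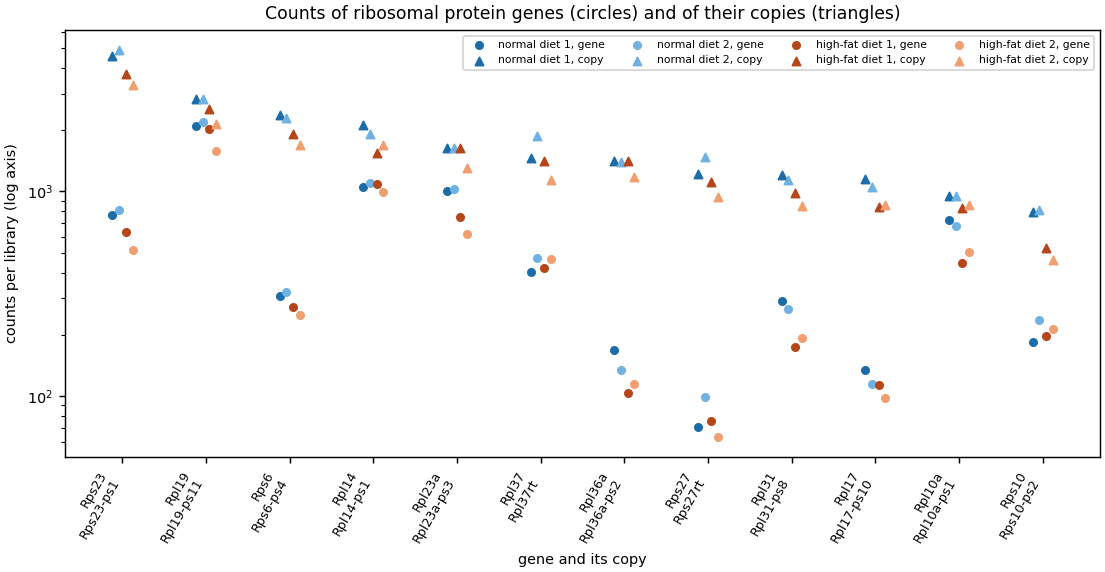
Counts per library (log axis) of 12 ribosomal protein genes (circles) and their most abundant copies (triangles), coloured by diet and replicate. Copies lie above their gene in every library, and for Rps27, Rpl36a and Rpl17 they lie furthest above.

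Genes with and without a long pyrimidine run at the start were compared for the diet difference. The 34 tested genes with a run of 7 or more C or T had a median log2 fold change of -0.01, with 19 negative. The 27 without had a median of -0.10, with 18 negative. Rpl34, with the long run shown at the opening, had 0.21, and Rpl31, also with a long run, had -0.36. A run counted here can lie wholly before the annotated start, as in Rpl31. The groups are therefore not genes with and without a TOP tract. Length bore little relation to the difference, with r = -0.00 between log2 exonic length and log2 fold change across the 85 genes, and for log2 mean FPKM r was -0.25. Both are descriptions over genes of the same libraries.

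Ribosomal proteins whose symbols do not follow the Rpl and Rps pattern were measured too. Fau, a ubiquitin-like fusion with a small subunit protein, had 17.8 and 16.2 CPM against 15.8 and 16.9 (log2 fold change -0.06). Rack1, a scaffold on the small subunit, had 584 and 683 CPM against 622 and 579 (-0.08), and Rpl36al had -0.05. None of these 3 was called, and the diets overlapped for each of them.

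The machinery around the ribosome was taken from lists of its parts. In each of the 12 lists edgeR called 0 genes at an adjusted p under 0.05, where it called 1.35% of all genes. DESeq2, which called 2.69% of all genes, called genes in the Myc family list alone. Elongation factors (9 tested) had a median log2 fold change of -0.08, initiation factors (36) of -0.06 and other TOP messenger RNAs (23) of 0.01. The smallest p among initiation factors was that of the scaffold Eif4g3, with 186 and 196 CPM against 151 and 149 (log2 fold change -0.35, edgeR adjusted p = 0.235). The elongation factor Eif5a2 had 18.6 and 17.6 CPM against 10.4 and 13.7 (-0.58, edgeR adjusted p = 0.391). Among TOP messenger RNAs, Btf3 had 94.7 and 91.0 CPM against 112 in both libraries on high-fat diet (0.27). The diets did not overlap for these 3 genes.

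Assembly factors of the ribosome had a lower median than the ribosomal proteins. Of 68 tested, 56 had a negative log2 fold change and 12 a positive one, with a median of -0.15. At an unadjusted p under 0.05 edgeR had 8 lower and 0 higher, where 6.03% of all genes were lower and 7.24% higher. Their median lay between -0.18 and -0.11 when each library was left out. The box C/D particle protein Nop56 had 126 and 113 CPM against 82.2 and 92.3, without overlap (log2 fold change -0.46, standard error 0.14, edgeR adjusted p = 0.179). The nucleolar protein Lyar had 58.3 and 40.8 CPM against 30.6 and 35.5 (-0.58, edgeR adjusted p = 0.247). Among 15 chaperones of ribosomal proteins, Grwd1, which escorts Rpl3, had 25.3 and 30.8 CPM against 17.9 and 17.3 (-0.67, edgeR adjusted p = 0.23). Its client Rpl3 had a log2 fold change of 0.10. RNA polymerase I and its factors (20 tested) had a median of -0.05.

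Subunits of the mitochondrial ribosome, a separate set encoded in the nucleus, also had a lower median than the cytosolic ones. Of 77 tested, 56 were negative and 21 positive, with a median of -0.19 that lay between -0.21 and -0.15 when each library was left out. At an unadjusted p under 0.05 there were 3 lower and 0 higher, so that the share lower was below the 6.03% of all genes. Mrpl46 had 16.9 and 17.5 CPM against 8.31 and 10.9, without overlap (log2 fold change -0.84, edgeR adjusted p = 0.232). Whether these lists differ from the cytosolic ribosomal proteins was not tested.

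The lists of Myc, mTORC1, p53, stress response and ribosome quality control genes held a few of the smaller p-values. Of the Myc family (10 tested), 4 were higher and 3 lower at an unadjusted p under 0.05 (edgeR). Over all genes 7.24% were higher and 6.03% lower. The list was chosen with earlier results of these data known. Mycn had 145 and 137 CPM against 96.8 and 98.4, a log2 fold change of -0.53 (standard error 0.13, edgeR adjusted p = 0.0816). Myc had 15.3 and 20.98 CPM against 32.0 and 38.0, a log2 fold change of 0.95 (standard error 0.24, edgeR adjusted p = 0.084). Both separated the diets, in opposite directions. DESeq2 called 1 gene of the family higher and 1 lower, where it called 2.69% of all genes. In the mTORC1 and S6 kinase list (32 tested, median -0.05), Rps6ka6 had 43.6 and 44.5 CPM against 29.9 and 29.3 (-0.57, edgeR adjusted p = 0.195). Pdcd4, an inhibitor of initiation that S6 kinase targets, had 114 and 116 against 140.3 and 156 (0.36, edgeR adjusted p = 0.25). In the p53 list (12 tested, median 0.01), the cell cycle inhibitor Cdkn1a had 19.9 and 25.6 CPM against 36.0 and 41.0 (0.76, edgeR adjusted p = 0.132). The stress response list (12 tested) was led by Atf3, with 2.23 and 5.01 against 7.95 and 7.04 CPM. The ribosome quality control list (19 tested, median -0.06) was led by Map3k20, a sensor of stalled ribosomes, with 214 and 239 against 295 and 269 CPM (0.32).

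Libraries held between 8590570 and 9940848 counts, with TMM factors from 0.965 to 1.04. Beside the share of ribosomal protein transcripts, markers of the suprabasal epidermis moved between the libraries. All 6 were detected, their summed CPM was 1037 and 2529 on normal diet and 3588 and 4455 on high-fat diet, and 2 of the 6 (Krt10, Krtdap) were called higher. Of 9 bulge markers 1, Krt14, was called higher, where 1.12% of all genes were. Of the 9, 4 had a positive and 5 a negative log2 fold change, with a median of -0.13. In CPM 3 of them were higher and 5 lower without overlap between the diets, where 22.7% and 21.9% of all genes were. Markers of T cells, endothelium, adipocytes, muscle and erythroid cells each summed to under 20 CPM in every library, and 2 of 3 adipocyte markers and 1 of 3 muscle markers were at 0 throughout. Summed CPM of fibroblast and dermal papilla markers was 44.8 and 56.4 on normal diet and 80.5 and 64.5 on high-fat diet, and that of macrophage and Langerhans cell markers was 21.7 and 35.7 against 43.6 and 49.6. T cell markers summed to 0.581 and 9.81 against 13.4 and 15.4 CPM, and endothelial markers to 8.14 and 11.2 against 14.95 and 19.6. For these 4 lists both high-fat diet libraries lay above both normal diet libraries, with no gene called. Melanocyte markers overlapped between the diets (26.3 and 12.6 against 21.1 and 12.6 CPM). The part of suprabasal cells and of these other cell types in the ribosomal protein values was not tested.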

How the data were processed

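RNA-seq counts of 4 libraries were compared, 2 per diet, grouped by the diet in the labels. The authors deposited whole-number counts and FPKM for 55401 genes, with coordinates and exonic sizes. Per the submitters' processing notes the tools named are HISAT2 2.0.1, cutadapt 1.9.1 and bcl2fastq 2.17.1.14. For the counting program, strand, annotation and build the sources used here give nothing. All 89 genes have the coordinates of GENCODE M21 on GRCm38. The 221604 deposited FPKM values equal counts scaled by exonic size and column total within 0.005. Total RNA was purified on silica columns, per the labels' protocols.

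All genes were tested together in R 4.3.3 with the edgeR 4.0.16 quasi-likelihood test (TMM, default expression filter by group with a minimum count of 10 and total of 15, which kept 14479 genes), with Benjamini-Hochberg adjustment. A gene can pass that filter through 1 diet alone. Standard errors are the fold change divided by the square root of F, and CPM are TMM-scaled. The threshold for a call was an adjusted p of 0.05. The fit was tested on simulated data, where edgeR recovered 51% of 2-fold and 82% of 4-fold changes. DESeq2 recovered 47% and 82% of them, and limma on log2(FPKM + 1) 9% and 56%. Changes under 2-fold were not simulated. DESeq2 1.42.0, limma 3.58.1 on log2(FPKM + 1), other scalings and filters, a length correction, counts summed with pseudogene rows (and, added after seeing the data, also with rt rows), a replicate block and each library left out were alternatives. The members and lists were chosen with earlier results of these data known.

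Genes are named by a rule: the 3 highest and 3 lowest log2 fold changes and the 3 highest and the lowest levels of each subunit, paralogs with their parents, a set of prior interest, and the genes with the smallest p of each list, of which some are given only within counts. Rpl29, Rpl6, Rps20, Rps29, Rpl28, Rpl12, Rpl10 and the genes of copies and window classes were named after their values were seen. Coding windows and copies came from GENCODE transcripts (local alignment), and start windows and motifs from RefSeq promoters. Protein sequences were not used here. Some genes are not reported by name or drawn here, and counts and sums include them.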

Additional observations from a re-analysis of the deposited data

How the results depend on the processing

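No ribosomal protein gene was called under any alternative run, the sum with pseudogene and rt rows included, with a smallest adjusted p of 0.106 for Rps7 (edgeR without a filter on low counts). The sign of a gene's log2 fold change was the same as reported for 64 to 85 of 85 genes, lowest without the second normal diet library. The large subunit median was -0.123 without the first high-fat diet library and 0.0581 without the second. The small subunit median ranged from -0.15 to 0.02 over the left-out libraries. The share difference ranged from -0.312 to -0.113 percentage points, where the sign could not change because the diets did not overlap. It was -0.212 with all 4 libraries, -0.150 without small RNA and -0.254 with pseudogene rows. Over all genes, 162 higher and 33 lower calls became 308 and 111 with the replicate block, which called 0 ribosomal protein genes (median -0.04). Replicate numbers 1 and 2 occur in both diets, but deviations of same-numbered libraries had a correlation of -0.01 over all 14479 genes (0.27 over the 85), and the labels give no pairing, so the numbers were not taken to pair the libraries. Calls over all genes were 408 and 225 with no filter, 274 and 115 with DESeq2, 280 and 101 at an adjusted p under 0.1, 88 and 3 with equal sums of TPM, and 2 and 0 with limma at a pseudocount of 1 or 0.1. Lower calls were 65 with library totals only, 55 with mean FPKM of at least 1 and 56 with the length trend removed. Leaving out each library gave 0 to 81 higher and 0 to 2 lower calls, with 0 of each without the first normal diet library. The cause of these shifts was not tested. Genes under about 50 counts per library, such as Rps13 and Rpl32l, have intervals wider than 2-fold, so a smaller difference was not detectable at this depth.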

Other observations

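Ribosomal protein genes often carry small nucleolar RNA genes in their introns. In the GENCODE annotation 30 of the 83 protein-coding members of the set (36.1%) contained at least 1 on the same strand, against 259 of all 22028 protein-coding genes (1.18%). Rpl4 contained 5, Rpl13a contained 4, and the set contained 58. Those 58 small RNA genes had 434 and 626 counts on normal diet and 614 and 567 on high-fat diet. These counts are not scaled to the library. The normal diet libraries were larger, with 9940848 and 9366856 counts in all against 8734246 and 8590570. Whether the diets overlapped can therefore not be read from them. The genes are scattered over the genome, with 15 of 89 on chromosome 7 and 8 on chromosome 17, and no other chromosome holds more than 7.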
